A study of Lolium arundinaceum with 18 samples.

Results

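DnaJ proteins (J proteins, also called HSP40) are the co-chaperones that bring unfolded or client proteins to the heat shock protein HSP70. Their J domain makes HSP70 split ATP, which closes HSP70 on the client, and nucleotide exchange factors then let the client go. Type A members carry the J domain with a glycine-rich stretch and a zinc finger, type B members lack the zinc finger, and type C members share only the J domain. Plants keep different J proteins in the cytosol, the endoplasmic reticulum, the mitochondria and the chloroplast, and some cytosolic ones are well-known heat and stress response genes.

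In the leaves of tall fescue (Festuca arundinacea), a cool-season turf grass, these genes were taken as every unigene whose description contained dnaJ or J domain. A unigene is the longest transcript of a gene in an assembly made from the reads, without a genome. The rule used only the descriptions and found 100 of 109684 unigenes. By their descriptions, 30 were chloroplast J proteins and 18 belonged to subfamily B. Another 11 were described as DnaJ protein homologs or under a similar name, counting 1 described only as DnaJ. These 11 are called type A here, but none of their descriptions names a type, and presence of the zinc finger was not tested. Endoplasmic reticulum proteins numbered 6, and 6 were of subfamily C, JJJ1 or SPF31. The mitochondrial proteins numbered 5 (subfamily C member 15, mitochondrial in mammals, included). A further 19 carried a plant number without a chloroplast label, and the last 5 were a dnaJ 72-like unigene and unigenes described as chaperone DnaJ without a number. Many members were pieces of transcripts: their median length was 586.5 bases, from 205 to 7614, and 42 were shorter than 500 bases. For 49 of them the best protein match came from Aegilops tauschii, for 21 from Brachypodium distachyon and for 13 from Triticum urartu. Tall fescue is a polyploid outcrosser, and 19 members shared an assembly cluster with another member, so reads of near-identical copies may be split between them and single copies are uncertain.

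Leaf messenger RNA had been sequenced in 18 libraries, 3 for each of 6 groups, after 20 days of treatment. CK (sprayed with double-distilled water), Si NPs (silicon nanoparticles, 300 mg/L) and CNCs (cellulose nanocrystals, 100 mg/L) were kept at 65 to 75% of field capacity. DS, DS_Si NPs and DS_CNCs, the droughted counterparts, were held at 35 to 45%. The surfactant Tween-20 is named only for the particle sprays and no spray is named for DS. Effects of surfactant therefore cannot be told apart from those of the particles, and neither can effects of spraying in comparisons of particle groups with DS. In DS vs CK, and in the interactions that use it, effects of spraying cannot be told apart from those of drought. Whether the 3 libraries of a group came from separate pots is not given in the sources used here, and p-values then measure only the spread between these libraries. Leaf genes were present in every library: 51 unigenes of Rubisco small subunits and chlorophyll a-b binding proteins summed to 33759 to 87947 TPM (the abundance estimate of Salmon, which accounts for the length of the transcript and the depth of the library).

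Library totals ran from 16175624 to 26102122 estimated counts. One control library stood apart before any comparison was made. At the 3821 unigenes where CK 1 and CK 2 differed more than 8-fold, CK 3 lay between them in 99% of cases, whereas the same share was 2.1% for CK 1, 7.5% for CK 2 and 49.3 to 76.8% for the libraries of the other groups. Whether CK 3 is an independent library was not tested, and if it is not, p-values against CK are too small. All comparisons share 1 estimate of the spread per unigene, so the other p-values could be too small as well. For those, values without CK 3 are not given here. Counts and calls that rest on CK are therefore also given without CK 3. Histone and cyclin transcripts, marks of dividing young tissue, summed to 4188 to 4889 TPM in CNCs and 2745 to 3313 in CK. Transcripts of 3-ketoacyl-CoA synthases and lipid-transfer proteins, marks of the epidermis, summed to 1036 to 1180 TPM in CNCs, 1010 to 1630 in Si NPs and 1757 to 3594 in CK. Seed and flower markers (9 unigenes) summed to 44.9 to 74.8 TPM in CNCs and 5.28 to 34.7 in CK. The part of these tissue markers in the results was not tested, and in whole leaves fewer cells of a type and less RNA per cell cannot be told apart.

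Enough counts for a test were found in 84 members, and the 16 others had a mean of at most 3.98 TPM. Levels were compared with the quasi-likelihood test of edgeR in 1 fit over the 18 libraries. A unigene was called, or a differentially expressed gene (DEG), at an adjusted p (Benjamini-Hochberg, over all 55979 tested unigenes) below 0.05 and a log2 fold change beyond 2. The words rose and fell are used for such calls, and errors of fold changes are standard errors of that fit. Comparisons that share a control are not independent: DS, Si NPs and CNCs were each set against the same CK libraries, and both droughted particle groups against the same DS libraries.

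Against CK, 5 members rose in DS and none fell (DS vs CK). That is 5.95% of those tested, where 1.59% of all tested unigenes were called higher and 0.423% lower. In addition, 29 of the 84 had an unadjusted p below 0.05 (34.5%, against 19.6% of all unigenes). The 5 were a DnaJ subfamily B member 8 unigene (DN17337_c0_g1), a subfamily B member 4-like protein, and copies of the chloroplast proteins dnaJ 8 (2 of them) and dnaJ 11 (1). Without DS 2 the direction of the counts turned, with 0 members higher and 2 lower, and limma on TPM called 7 higher and 1 lower. For other tools and for left-out libraries except CK 3, shares of all unigenes are not given here or below. Such counts cannot be read as particular to the members. None of the 5 passed without CK 3, and only 102 of all unigenes were then called higher in place of 890.

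Under normal conditions the particles called few members. Si NPs raised 1 and lowered none (Si NPs vs CK, against 0.847% of all unigenes higher and 0.179% lower), but limma on TPM and the newer quasi-likelihood method of edgeR each called 0 higher and 1 lower. CNCs raised 1 and lowered 1 (CNCs vs CK, against 0.291% and 0.0857%). Without CK 3, no member was called with either particle, and 3 of all unigenes were called higher with Si NPs and 3 with CNCs.

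Under drought stress 81 of the 84 members did not pass with Si NPs and 78 did not with CNCs. DS_Si NPs had 1 member higher and 2 lower than DS, where 2.34% of all unigenes were higher and 1.04% lower. DESeq2 called 4 higher and 5 lower, and without DS_Si NPs 2 the counts were 1 higher and 0 lower, without DS 2 0 and 0. DS_CNCs had 1 higher and 5 lower, or 5.95% of those tested, where 3.48% of all unigenes were higher and 2.32% lower. Without DS_CNCs 1 or DS 2 the counts were 1 higher and 2 lower, and without DS_CNCs 2 1 and 1. Tissue markers moved with these comparisons too: the epidermis markers summed to 1826 to 2914 TPM in DS and 1026 to 1587 in DS_CNCs, and the Rubisco and chlorophyll-binding unigenes to 40118 to 51423 in DS and 53083 to 87947 in DS_Si NPs, without overlap. Their part in these results was not tested. The interaction, which is the particle effect under drought minus the effect under normal water, was negative and called for 6 members with CNCs (7.14%, against 1.41% of all unigenes lower and 0.554% higher). With Si NPs it was called for 1 (1.19%, against 0.195% lower and 0.0679% higher). CK 3 left out, 4 of the 6 and 0 of the 1 remained called, while all unigenes called lower went from 789 to 189 and from 109 to 6. Without DS 2 the CNCs interaction was called above 0 for 3 members and below 0 for 5, and that with Si NPs for 1 and 0. DESeq2 called the CNCs interaction above 0 for 2 and below 0 for 12. In all, 11 members were called at least once in the 9 comparisons, with 24 calls. The share of all unigenes called at least once was not counted. Neither this count nor those by class below can therefore be read as particular to the members.

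**Figure D1:**
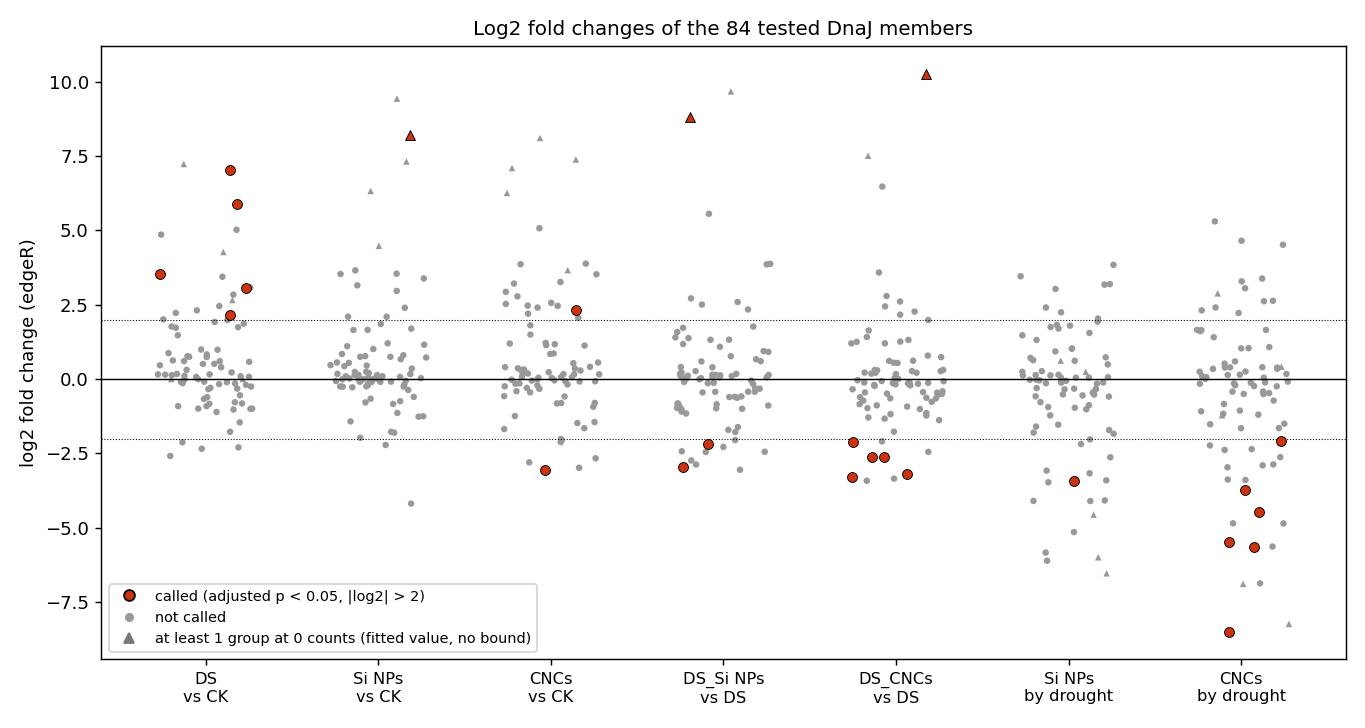
Log2 fold change (vertical axis, edgeR) of each of the 84 tested DnaJ members in 5 pairwise comparisons and both interactions with drought (horizontal axis); dotted lines mark log2 fold changes of 2 and −2. Red points passed the test, with 5 above 0 in DS vs CK and 6 below 0 in the CNCs by drought interaction, and triangles have a group at 0 counts, so their height is no bound.

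Over the tested members the median log2 fold change was small in each comparison. It was 0.17 in DS vs CK, 0.14 in Si NPs vs CK and 0.18 in CNCs vs CK, where the medians of all unigenes were 0.00, 0.07 and 0.08. Under drought it was 0.03 with Si NPs and −0.13 with CNCs, beside 0.14 and 0.10 for all unigenes. The sum of all 100 members ran from 1281 to 1754 TPM in CK, from 1670 to 2317 in DS, from 1095 to 2256 in DS_Si NPs and from 1620 to 2160 in DS_CNCs. The ranges of CK and DS overlapped, as did those of DS and both droughted particle groups. TPM are not rescaled for composition, and the median unigene differed by up to 0.32 on the log2 scale in TPM between CNCs and Si NPs (0.20 between CNCs and CK).

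Among the type A members, 1 gene was called. DN1847_c1_g2, described as dnaJ protein homolog, was the DnaJ unigene with the highest mean over the 18 libraries (107 TPM). It is put here, by that description only, with a group that serves cytosolic HSP70 and in Arabidopsis carries a farnesyl group. It had 36.9, 50.3 and 42.1 TPM in CK, 181, 168 and 91.5 in DS, and 328, 174 and 235 in CNCs. Si NPs leaves had 170.4, 81.1 and 96.1 TPM. Droughted leaves that had received a particle overlapped CK, with 39.97, 35.4 and 58.8 TPM in DS_Si NPs and 47.5, 30.2 and 62.1 in DS_CNCs. Every DS, CNCs and Si NPs library therefore stood above every CK library, and above every library of both droughted particle groups.

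This gene rose with CNCs by 2.33 ± 0.40 on the log2 scale (edgeR adjusted p = 0.0223) and fell by 2.12 ± 0.39 from DS to DS_CNCs (adjusted p = 0.00651). Its CNCs by drought interaction was −4.45 ± 0.56 (adjusted p = 0.00156) and that with Si NPs −3.43 ± 0.55 (adjusted p = 0.0209). In DS vs CK the log2 fold change of 1.98 ± 0.39 (adjusted p = 0.0129) was under the fold threshold, as were 1.65 ± 0.39 with Si NPs (adjusted p = 0.0493) and −1.78 ± 0.39 in DS_Si NPs vs DS (adjusted p = 0.0206). The CNCs interaction held without each of the 12 libraries in turn, at adjusted p up to 0.00984. By contrast, the call in CNCs vs CK was lost without CNCs 1, CNCs 3 or any CK library (log2 2.06 to 2.49, adjusted p up to 0.162), and that in DS_CNCs vs DS without DS_CNCs 2 or DS 2 (−2.66 to −1.88). The Si NPs interaction was lost without DS_Si NPs 1, DS 2, Si NPs 1, Si NPs 2 or any CK library (−3.77 to −3.00, adjusted p up to 0.106).

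Its relatives were not called. Subfamily B unigenes DN1847_c1_g1 (member 4, 210 bases) and DN1847_c9_g1 (member 1-like) share its assembly cluster and are named after their values were seen. The former had 0 to 3.38 TPM in CK, 6.11 to 16.0 in DS, 1.85 to 12.5 in CNCs and 0.80 to 3.28 in DS_CNCs. The latter had 3.39 to 5.55 TPM in CK, 5.29 to 7.05 in DS, 9.05 to 14.9 in CNCs and 1.17 to 3.89 in DS_CNCs. DN1847_c7_g1, another dnaJ protein homolog from the same assembly cluster, had 50.2 to 56.6 TPM in CK, 51.5 to 57.97 in DS and 57.8 to 85.9 in CNCs, and the log2 differences of DS and CNCs from CK were 0.16 ± 0.20 and 0.40 ± 0.20. In DS_CNCs it had 68.6, 87.4 and 115.6 TPM, above every DS library. The log2 fold change of 0.79 ± 0.21 against DS (edgeR adjusted p = 0.0281) is under the fold threshold. DN15040_c0_g1, a dnaJ protein homolog 2-like unigene, had 40.2 to 44.6 TPM in CK and 61.4 to 75.7 in DS, without overlap. Its log2 fold changes were 0.99 ± 0.25 in DS vs CK (adjusted p = 0.0376) and −0.89 ± 0.25 in DS_Si NPs vs DS (adjusted p = 0.0457), again below the fold threshold. The fourth type A member with an adjusted p below 0.05 went the other way and is named here after its values were seen. DN17799_c0_g1 (homolog 1) had 2.90, 2.62 and 3.16 TPM in DS and 4.19 to 8.46 in both droughted particle groups, with log2 fold changes of 1.18 ± 0.29 in DS_Si NPs vs DS (adjusted p = 0.0303) and 1.20 ± 0.29 in DS_CNCs vs DS (adjusted p = 0.0206). Thus 4 of the 9 tested members called type A here reached an adjusted p below 0.05 and 1 passed the fold threshold too.

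Subfamily B members are named after mammalian DNAJB proteins, the group that holds the classic stress-induced HSP40. Here 4 of the 16 tested were called in at least 1 comparison, with no share of all unigenes to set beside it. Subfamily B did not move as 1 group. DN31695_c0_g2 (member 13), not called and named after its values were seen, had 3.81 to 8.42 TPM in CK (35 counts). It had 0 to 1.2 TPM in DS and 0.24 to 0.92 in CNCs, below CK in both. The other member 13 unigenes overlapped CK in DS and in CNCs. DN17337_c0_g1, subfamily B member 8, had 26.6, 21.8 and 23.5 TPM in CK and 75.2, 122 and 125 in DS. CNCs leaves had 81.1, 76.3 and 43.2 TPM and Si NPs leaves 27.1, 18.0 and 9.84. In DS_CNCs its levels were 20.6, 16.8 and 19.6 TPM, and in DS_Si NPs they were 14.2, 12.8 and 57.2. DS and CNCs libraries lay above all CK libraries, while Si NPs overlapped CK and DS_Si NPs 3 lay apart from the other libraries of its group.

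DN17337_c0_g1 rose by 2.16 ± 0.42 on the log2 scale in DS (edgeR adjusted p = 0.0123) and fell by 2.17 ± 0.42 in DS_Si NPs (adjusted p = 0.0146) and by 2.62 ± 0.43 in DS_CNCs (adjusted p = 0.00383), both against DS. The CNCs by drought interaction was −3.75 ± 0.59 (adjusted p = 0.00513). The last 2 results held without any 1 library, at adjusted p up to 0.0208 for DS_CNCs vs DS and 0.0252 for the interaction. The rise in DS was lost without DS 2, CK 2 or CK 3 (log2 1.82 to 2.42, adjusted p up to 0.0821), and the fall in DS_Si NPs without DS_Si NPs 1, DS_Si NPs 2 or DS 2 (−2.87 to −1.86, adjusted p up to 0.0702). CNCs under normal conditions gave 1.13 ± 0.41 (adjusted p = 0.168), which did not pass. Another subfamily B member 8 unigene, DN6622_c0_g1, was not called and is named here after its values were seen. It had 33.8 to 39.8 TPM in CK, 28.4 to 42.0 in DS and 34.5 to 55.3 in DS_CNCs, which overlap.

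Subfamily B member 4 was present as 7 unigenes, of which 6 were tested. All 6 had a log2 fold change above 0 in DS vs CK (0.40 to 3.07, 5 with an unadjusted p below 0.05, 1 called) and below 0 in DS_CNCs vs DS (−3.28 to −0.07, 3 with an adjusted p below 0.05, 2 called). The untested copy, DN75144_c0_g1, went the other way: it had 32 counts in CK and 0 in DS and CNCs, at least 9.97-fold and 9.76-fold lower, so that without a filter on low counts 6 of 7 copies were above 0 in DS vs CK. DN909_c0_g2 had 1.58, 0.81 and 1.36 TPM in CK, 13.3, 11.9 and 4.34 in DS, and 9.69, 3.51 and 7.54 in CNCs. Its levels were 4.12, 1.79 and 1.46 TPM in Si NPs, 0.83, 0.58 and 2.24 in DS_Si NPs and 1.05, 0.61 and 1.48 in DS_CNCs. DS and CNCs again stood above CK without overlap, and both droughted particle groups below DS.

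DN909_c0_g2 rose by 3.05 ± 0.69 in log2 in DS (edgeR adjusted p = 0.0251), and fell by 2.94 ± 0.69 in DS_Si NPs (adjusted p = 0.0269) and by 3.28 ± 0.70 in DS_CNCs (adjusted p = 0.0123). Its CNCs interaction of −5.47 ± 0.97 (adjusted p = 0.00911) held without each library, at adjusted p up to 0.0426. Of the other calls, that in DS was lost without DS 1, DS 2 or any CK library (adjusted p up to 0.135), that in DS_Si NPs without DS_Si NPs 1, DS_Si NPs 2, DS 1 or DS 2 (up to 0.101), and that in DS_CNCs without DS_CNCs 1 or DS_CNCs 2 (up to 0.0524).

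The shorter DN38192_c0_g1 (389 bases, also B member 4-like) had 0.86, 0.62 and 1.83 TPM in CK, 8.55, 10.2 and 4.10 in DS and 9.59, 3.92 and 9.20 in CNCs. In DS_CNCs it had 0.67, 0.57 and 1.21 TPM and fell by 3.19 ± 0.84 in log2 against DS (edgeR adjusted p = 0.0291), and its CNCs interaction was −5.65 ± 1.17 (adjusted p = 0.0204). It counted only 10 reads in CK and 8 in DS_CNCs, and both calls were lost when certain single libraries were left out, among them DS_CNCs 1, DS_CNCs 2 and DS 2 for both (adjusted p up to 0.107 and 0.0635). DS 1 decided the first too, and CNCs 3 and every CK library the second.

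DN32066_c0_g1 (1303 bases, subfamily B member 4) had smaller differences and less spread. It had 5.80, 6.53 and 6.59 TPM in CK, 10.3, 9.36 and 8.93 in DS, and 15.0, 11.8 and 10.8 in CNCs. Si NPs leaves had 9.76, 8.61 and 8.89 TPM, DS_Si NPs leaves 4.13, 3.44 and 5.15, and DS_CNCs leaves 4.68, 3.73 and 4.56. Both droughted particle groups were below CK as well as below DS. The interaction was −2.09 ± 0.29 with CNCs (edgeR adjusted p = 0.00259), which passed, and −1.84 ± 0.29 with Si NPs (adjusted p = 0.0209), which did not reach the fold threshold. The former slipped under that threshold without CNCs 1 or DS_CNCs 2 (−2.23 to −1.95, adjusted p up to 0.015). Against DS, log2 was −1.09 ± 0.21 in DS_Si NPs (adjusted p = 0.0133) and −1.23 ± 0.21 in DS_CNCs (adjusted p = 0.0043).

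**Figure D2:**
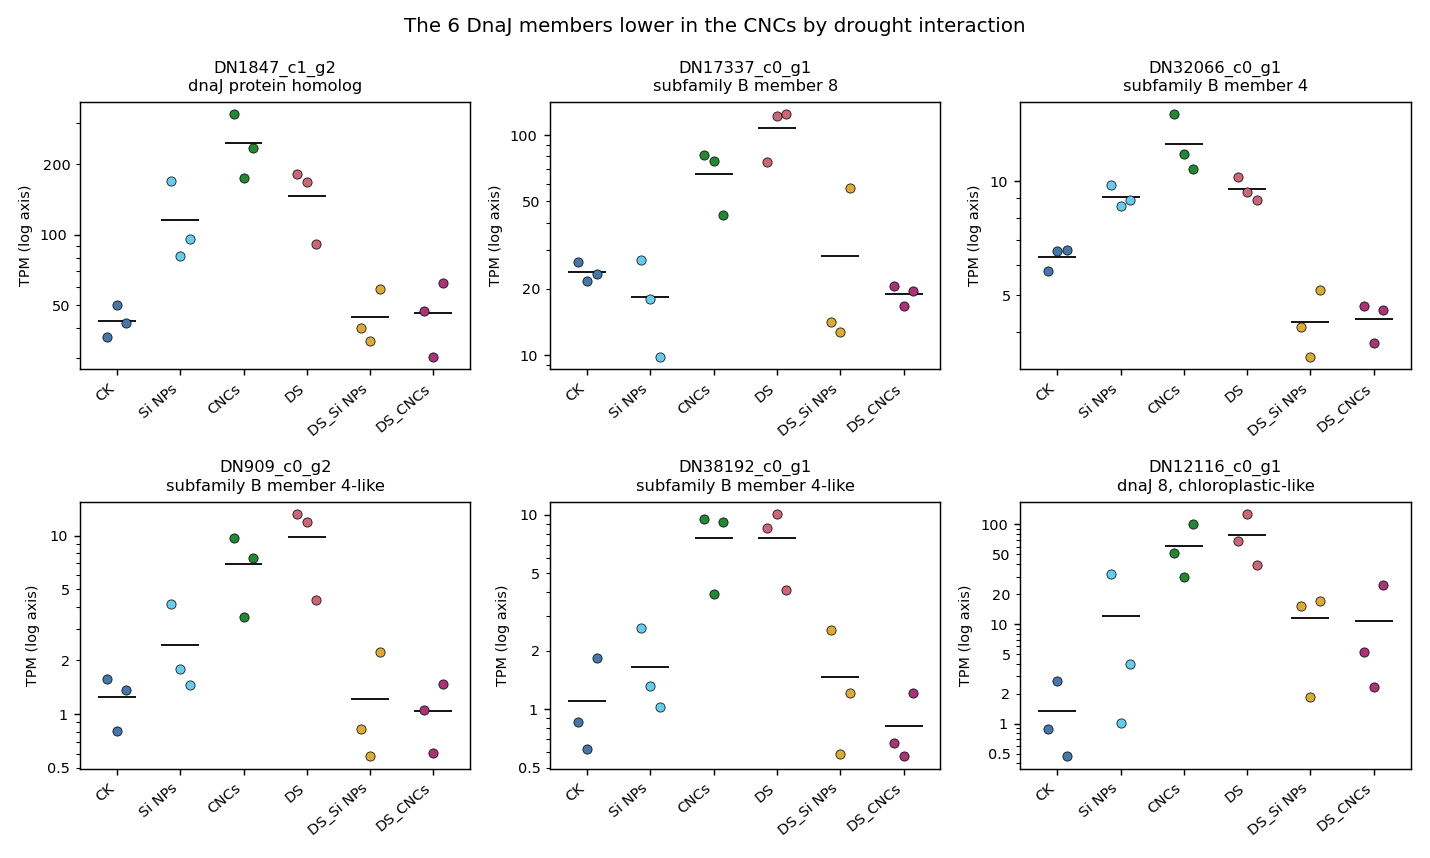
TPM on a log axis of the 6 members called in the CNCs by drought interaction, for each of the 3 libraries (points) of the 6 groups, with group means as lines. In each panel the CNCs and DS libraries lie above the CK libraries, and the DS_CNCs libraries lie below the DS libraries.

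The chloroplast proteins were the largest class. In Arabidopsis, dnaJ 8, dnaJ 11 and dnaJ 20 are small J proteins of the chloroplast stroma, where they serve the chloroplast HSP70. The 9 copies of dnaJ 8 were all tested, and all had a log2 fold change above 0 in DS, Si NPs and CNCs against CK, under TMM and RLE scaling, DESeq2 and TPM alike. The range was 1.86 to 7.23 in DS (median 3.53) and 1.81 to 6.26 in CNCs (median 3.26). It was 0.77 to 4.48 in Si NPs, and the highest value of each range belongs to DN58426_c0_g1, which had 0 counts in CK and whose fitted value is no bound. That copy was at least 18.2-fold higher in DS than in CK and at least 11.3-fold in CNCs, taking 3 counts over the CK group as the limit.

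Summed over its copies, dnaJ 8 had 36.9, 62.7 and 48.6 TPM in CK, 438, 616 and 387 in DS and 443, 236 and 661 in CNCs. Particle groups under drought were uneven, with 162, 36.7 and 368 TPM in DS_Si NPs and 259, 52.0 and 919 in DS_CNCs. Si NPs leaves had 271, 36.9 and 135 TPM. DS and CNCs therefore lay above CK in every library, and the other groups overlapped it. Despite these differences, 2 of the copies were called in DS vs CK, 0 in CNCs vs CK (8 with an unadjusted p below 0.05, lowest edgeR adjusted p = 0.0714) and 0 in Si NPs vs CK (3 unadjusted, lowest adjusted p = 0.143).

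The most abundant copy, DN8602_c0_g1, had 15.7, 20.8 and 19.4 TPM in CK, 120.3, 225 and 142 in DS and 158, 60.6 and 248 in CNCs. It rose by 3.53 ± 0.86 in log2 in DS (edgeR adjusted p = 0.0332), a call that was lost without DS 1, DS 2 or any CK library (adjusted p up to 0.152). In DS_CNCs it ranged from 18.1 to 219.9 TPM, and log2 against DS was −0.12 ± 0.77. DN25037_c0_g1 was as uneven, with 6.87 to 15.6 TPM in CK, 30.9 to 80.3 in DS and 12.0, 78.2 and 275 in DS_CNCs, and was not called.

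The shorter copy DN12116_c0_g1 was called both in DS vs CK and in the CNCs interaction. It had 0.88, 2.67 and 0.47 TPM in CK, 68.2, 128 and 39.6 in DS and 51.7, 29.6 and 100.2 in CNCs. With particles under drought it had 15.4, 1.84 and 17.1 TPM (DS_Si NPs) and 5.20, 2.36 and 24.6 (DS_CNCs), all below DS. The rise in DS was 5.88 ± 1.30 in log2 (edgeR adjusted p = 0.0218) and the CNCs by drought interaction −8.49 ± 1.69 (adjusted p = 0.0172), while DS_CNCs vs DS missed the threshold at −3.42 ± 1.13 (adjusted p = 0.0659). The unigene is 320 bases long and had 11 counts in CK. Its rise was lost without DS 2 or any CK library (adjusted p up to 0.133), and its interaction without DS_CNCs 1, DS_CNCs 2, CK 1 or CK 3 (adjusted p up to 0.0712).

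For dnaJ 11, 14 unigenes were found, of which 13 were tested, and they did not move together: 6 had a log2 fold change above 0 and 7 below 0 in DS vs CK. Summed, they had 488, 709 and 559 TPM in CK, 230.2, 293 and 247 in Si NPs and 221, 150.4 and 153 in CNCs. The sums of both particle groups lay below CK in every library, although by copy 8 had a log2 fold change above 0 and 5 below 0 in Si NPs vs CK, and 4 and 9 in CNCs vs CK. Under drought the libraries scattered, with 173, 649.6 and 228 TPM in DS, 167, 341 and 816 in DS_Si NPs and 389, 463 and 266 in DS_CNCs.

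DN14302_c0_g1 was the dnaJ 11 copy that fell with CNCs. It had 102, 129.8 and 112 TPM in CK, 19.4, 13.1 and 17.2 in CNCs and 23.0, 37.4 and 20.5 in Si NPs. The log2 fold change was −3.06 ± 0.56 in CNCs vs CK (edgeR adjusted p = 0.0303) and −1.78 ± 0.53 in Si NPs vs CK (adjusted p = 0.0895), so the second did not pass. Each of the 6 libraries, left out in turn, ended the call (log2 −3.21 to −2.92, adjusted p up to 0.142). In DS it had 19.0, 100.2 and 23.4 TPM, with DS 2 near the CK level.

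DN5187_c0_g1, the most abundant dnaJ 11 copy, followed the same order of libraries: 122.8, 179.7 and 136 TPM in CK, 34.5, 19.3 and 23.3 in CNCs and 24.5, 184 and 39.8 in DS. Its log2 fold change of −2.80 ± 0.61 with CNCs had an edgeR adjusted p of 0.0519. DN38521_c0_g1 (284 bases) had 98.4 to 137 TPM in CK and 30.8 to 56.0 in CNCs, yet its log2 fold change of −1.45 ± 0.81 (adjusted p = 0.362) did not pass.

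In the opposite direction, the weakly expressed dnaJ 11 copy DN128651_c0_g1 rose in DS. It had 0, 0.18 and 0 TPM in CK and 5.69, 18.8 and 5.98 in DS. With 141 counts in DS and 1 in CK, the ratio was 164 (95% counting interval 29.0 to 6530, exact binomial, covering counting error only), and the fitted adjusted p was 0.0278 in edgeR. The call was lost without DS 2 or any CK library (adjusted p up to 0.155).

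Of the 6 dnaJ 20 unigenes, 4 were tested, and they did not move together. In DS, Si NPs and CNCs, each against CK, 2 had a log2 fold change above 0 and 2 below 0. DN6592_c0_g1, not called and named after its values were seen, was higher with both particles. Its Si NPs libraries (15.0 to 26.6 TPM) and CNCs libraries (9.65 to 29.6) lay above its CK libraries (4.86 to 8.59). DN2071_c0_g1, the main copy of dnaJ 20, had smaller differences with less spread. In Arabidopsis, dnaJ 20 delivers misfolded deoxyxylulose phosphate synthase, an enzyme of plastid isoprenoid synthesis, to HSP70. The unigene had 109, 138 and 120.3 TPM in CK, 54.3, 45.4 and 42.2 in Si NPs and 60.8, 56.6 and 54.1 in CNCs. DS had 71.6, 60.4 and 93.2 TPM, and all libraries of these 3 groups lay below CK. Log2 fold changes were −1.14 ± 0.24 with Si NPs (edgeR adjusted p = 0.0397) and −1.24 ± 0.24 with CNCs (adjusted p = 0.0362), both under the fold threshold, and −0.61 ± 0.24 in DS (adjusted p = 0.17). Among droughted leaves, DS_CNCs (40.6, 77.0 and 33.1 TPM) and DS_Si NPs (78.1, 55.4 and 105) gave a log2 difference of −0.90 ± 0.24 with an unadjusted p of 0.00187 and an adjusted p of 0.331.

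**Figure D3:**
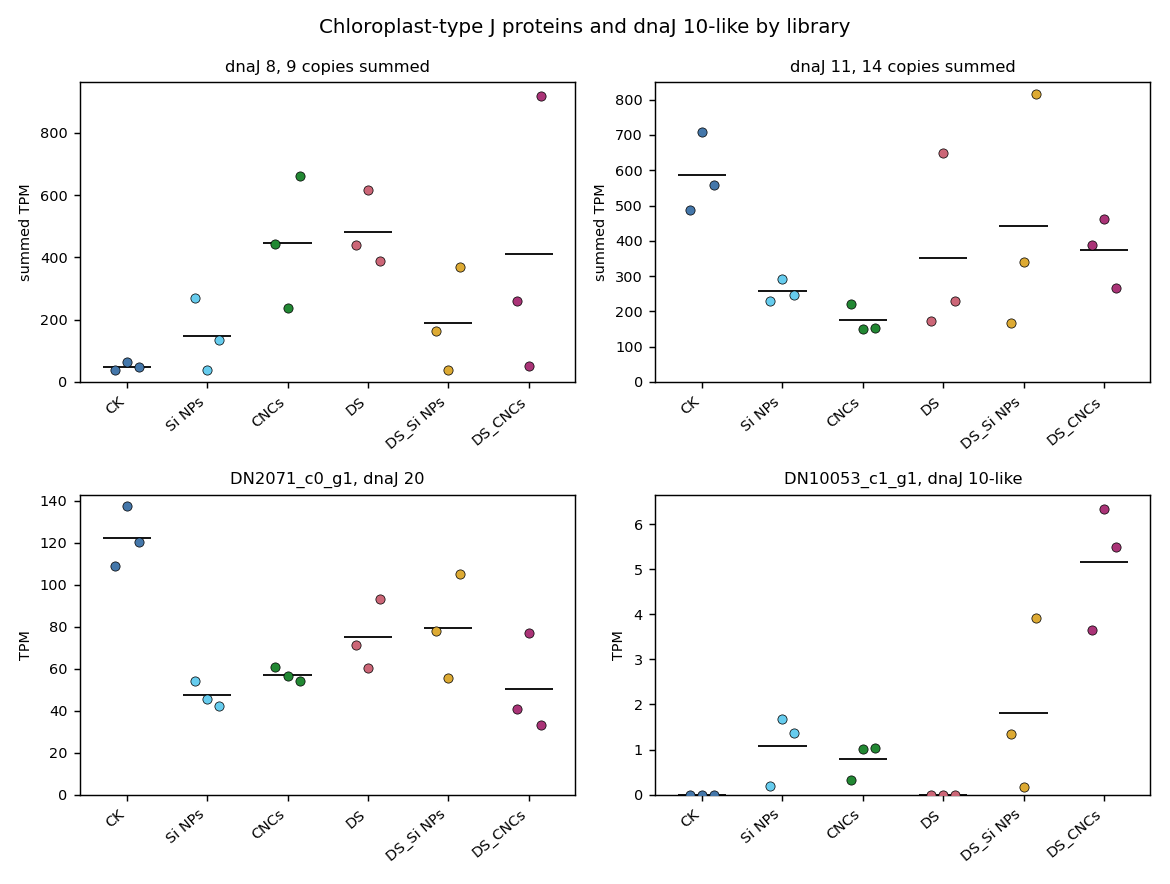
Summed TPM of the 9 copies of dnaJ 8 and the 14 of dnaJ 11, and TPM of the dnaJ 20 unigene DN2071_c0_g1 and the dnaJ 10-like unigene DN10053_c1_g1, for the 3 libraries (points) of each group, with group means as lines and axes from 0. Summed dnaJ 8 is higher in DS and CNCs than in CK, summed dnaJ 11 is lower in both watered particle groups than in CK although 8 of 13 tested copies had a log2 fold change above 0 with Si NPs, and DN10053_c1_g1 is at 0 in CK and DS.

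Of the 14 tested members with other plant numbers, 2 were called, both described as dnaJ 10-like. DN10053_c1_g1 had 0 TPM in all CK and all DS libraries. Every sprayed-particle library held it: 0.19, 1.68 and 1.36 TPM in Si NPs, 0.32, 1.01 and 1.03 in CNCs, 1.34, 0.16 and 3.92 in DS_Si NPs and 3.66, 6.33 and 5.50 in DS_CNCs. Against a limit of 3 counts over a group with none, it was at least 31.4-fold higher in Si NPs than in CK (83 counts) and at least 25.5-fold in CNCs (70). Under drought it was at least 51.9-fold higher in DS_Si NPs than in DS (156 counts) and at least 154-fold in DS_CNCs (490). The adjusted p in edgeR was 0.0408 for Si NPs vs CK, 0.0162 for DS_Si NPs vs DS and 0.0056 for DS_CNCs vs DS, which passed, and 0.0623 for CNCs vs CK, which did not. The last of the passing results held without each library (adjusted p up to 0.0258). That in DS_Si NPs was lost without DS 2 (adjusted p = 0.0702), and that in Si NPs without Si NPs 2, Si NPs 3 or any CK library (up to 0.173).

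A unigene described only as DnaJ, DN95551_c0_g1, was also at 0 in CK and DS, but in 1 to 3 libraries of each particle group it had at most 4.09 TPM and it was not called. A neighbour from the same assembly cluster as DN10053_c1_g1 was high in DS instead (both are named here after their values were seen). DN10053_c0_g1, described as dnaJ 10, had 10.9, 12.1 and 10.8 TPM in CK and 16.4, 22.0 and 15.9 in DS, with 7.78 to 11.1 in DS_Si NPs and 9.27 to 10.2 in DS_CNCs. Its log2 fold changes were 0.83 ± 0.22 in DS vs CK (edgeR adjusted p = 0.0482), −0.85 ± 0.22 in DS_Si NPs vs DS (adjusted p = 0.0374) and −1.01 ± 0.22 in DS_CNCs vs DS (adjusted p = 0.0136), none beyond 2. DN38239_c0_g1, the other called dnaJ 10-like unigene, had 3.99, 3.74 and 4.16 TPM in DS and 0.42, 1.08 and 0.58 in DS_CNCs. It fell by 2.61 ± 0.78 in log2 (adjusted p = 0.0477), a call that each of the 6 libraries ended when left out (adjusted p up to 0.148).

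The dnaJ 16 unigene DN23943_c0_g1 had the lowest adjusted p of all members between the particles, without passing. Its levels were 0.43, 0.06 and 0 TPM in Si NPs and 2.45, 1.18 and 6.8 in CNCs, and the log2 difference of 4.72 ± 1.24 had an edgeR adjusted p of 0.134. In DS_Si NPs the libraries ranged from 0.10 to 8.08 TPM.

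No member of the mitochondrial, endoplasmic reticulum and subfamily C classes was called in any of the 9 comparisons. In subfamily C with JJJ1 and SPF31, the 5 tested unigenes had log2 fold changes between −0.25 and 0.29 over the 5 comparisons with CK or DS, and none reached an adjusted p below 0.05. They include GRV2, which acts in endosome traffic in Arabidopsis, and JJJ1, a ribosome biogenesis factor in yeast. The most abundant of them, the spf31 unigene DN16573_c0_g1, had 57.3 to 91.5 TPM in CK, 66.8 to 75.0 in DS and 85.7 to 104 in DS_CNCs.

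The mitochondrial GFA2-like unigene DN5822_c0_g1 had 31.4, 33.1 and 35.9 TPM in DS and 22.6, 20.4 and 19.0 in DS_CNCs, with no overlap. GFA2 is needed for fusion of the polar nuclei in the Arabidopsis embryo sac. The log2 fold change of −0.88 ± 0.15 (edgeR adjusted p = 0.00414) was under the fold threshold. In DS_Si NPs (18.1, 23.2 and 25.2 TPM) it was −0.61 ± 0.15 (adjusted p = 0.03). In the endoplasmic reticulum, where J proteins serve the luminal HSP70 called BiP, 2 of the 5 tested members reached an adjusted p below 0.05, both in DS_CNCs vs DS and both named here after their values were seen. P58IPK homolog B (DN2088_c0_g1) had 22.1, 28.2 and 18.9 TPM in DS and 10.8, 5.90 and 12.3 in DS_CNCs, without overlap, and a log2 fold change of −1.18 ± 0.29 (adjusted p = 0.0238). ERDJ3A (DN13576_c0_g1) had 5.52, 8.37 and 8.98 TPM in DS and 7.93, 5.93 and 2.41 in DS_CNCs, which overlap, and a log2 fold change of −1.29 ± 0.35 (adjusted p = 0.0329).

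Without the fold threshold, DS_CNCs vs DS had 3 members higher and 10 lower (5.38% and 4.1% of all unigenes), and DS_Si NPs vs DS 2 higher and 7 lower (3.72% and 2.35%). In DS vs CK 8 were higher and 0 lower (2.6% and 1.29%). Si NPs vs CK had 2 higher and 1 lower (1.09% and 0.366%), and CNCs vs CK 1 higher and 2 lower (0.386% and 0.255%). In CNCs vs Si NPs 0 were higher and 0 lower (0.0322% and 0.291%). The Si NPs interaction was below 0 for 2 members and above 0 for 0 (0.264% and 0.155%), and the CNCs interaction for 6 and 0 (1.79% and 1.09%). Libraries of the groups did not overlap for 25 members higher in DS than in CK (29.8%, against 10.8% of all tested unigenes), for 32 higher in CNCs than in CK (38.1%, against 22.5%) and for 19 lower in DS_Si NPs than in DS (22.6%, against 11.7%). Between CNCs and Si NPs, 31 were higher in CNCs (36.9%, against 24.1%) and 4 lower (4.76%, against 4.27%). Between DS_CNCs and DS_Si NPs, 4 were higher in DS_CNCs (4.76%, against 7.2%) and 0 lower (against 2.99%). In DS_CNCs 16 were wholly above DS (19.0%, against 18.4%) and 15 wholly below (17.9%, against 12.0%). In Si NPs 9 were above CK (10.7%, against 13.0%) and 16 below (19.0%, against 17.8%). In the opposite direction to the first 3 counts, 11 were below CK in DS (13.1%, against 15.0%), 11 below CK in CNCs (13.1%, against 8.93%) and 6 above DS in DS_Si NPs (7.14%, against 11.7%). For single values, 0.1 is the smallest p that an exact permutation test could reach with 3 libraries a group.

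Between the particles no member was called. In CNCs vs Si NPs, 0.0197% of all unigenes were called higher and 0.0214% lower. There 10 members had an unadjusted p below 0.05 (11.9%, against 11.1% of all unigenes), and DESeq2 and the newer quasi-likelihood method of edgeR called 1 each. In DS_CNCs vs DS_Si NPs, 0.0% of all unigenes were called. There 7 members had an unadjusted p below 0.05 (8.33%, against 9.22% of all unigenes), and DESeq2, the newer method and limma on TPM called 0. The lowest adjusted p was 0.134 and 0.331. Over all 6 groups at once, 16 members differed (19.0%, against 12.6% of all unigenes at an adjusted p below 0.05), and 7 without CK 3. These were 5 chloroplast, 4 subfamily B, 3 type A and 3 numbered members and 1 mitochondrial one.

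The short unigene DN30098_c0_g1 (210 bases, chaperone protein DnaJ) was listed at 0 TPM in CK 2, Si NPs 1, CNCs 1, DS 1, DS 2 and DS_Si NPs 1, and reached 314 TPM in DS_Si NPs 2 and 181 in Si NPs 3. In no comparison did it pass.

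The proteins that work with J proteins were counted from 7 lists of description words. HSP70 and its relatives (41 tested, 1 of which, fes1, is also listed as an exchange factor by name) had 9 called higher and 0 lower in DS vs CK, and 5 higher and 0 lower in CNCs vs CK. With Si NPs 2 were higher, and 0 without CK 3. In DS_CNCs vs DS 10 fell, and 1 in DS_Si NPs vs DS. The CNCs by drought interaction was called lower for 14, and that with Si NPs for 3. Of all tested unigenes, 1.59% were called higher in DS vs CK, 0.847% in Si NPs vs CK and 0.291% in CNCs vs CK. Called lower were 2.32% in DS_CNCs vs DS, 1.04% in DS_Si NPs vs DS, 1.41% in the CNCs interaction and 0.195% in the Si NPs one. These shares apply to the other lists as well. Without CK 3 the counts were 2 in DS vs CK, 0 in CNCs vs CK, 8 in the CNCs interaction and 1 in the Si NPs one. Of all unigenes, 102 and 3 were then called higher in DS and CNCs against CK, and 189 and 6 lower in the interactions. DN9957_c0_g1, 1 of the 3 HSP70 unigenes with the highest mean TPM (heat shock cognate 70 kDa protein), had 54.7, 81.7 and 83.3 TPM in CK, 680.4, 939 and 461 in DS, 984, 438 and 746 in CNCs and 86.8, 52.7 and 227 in DS_CNCs. DS and CNCs lay above CK in every library, as for DN1847_c1_g2. Its log2 fold changes were 3.39 ± 0.51 in DS (edgeR adjusted p = 0.00347), 3.07 ± 0.50 with CNCs (adjusted p = 0.0201) and −2.61 ± 0.49 in DS_CNCs vs DS (adjusted p = 0.00701).

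HSP90 takes clients over from HSP70 through the linker HOP, and CHIP is the ubiquitin ligase of the pair. Of 37 such unigenes tested, 5 rose in DS, 2 with Si NPs and 4 with CNCs, 5 fell in DS_CNCs and 3 in DS_Si NPs (both against DS), and 9 were lower in the CNCs interaction. CK 3 left out, 3, 1 and 1 were called in DS, Si NPs and CNCs against CK and 6 in the interaction. Small heat shock proteins, which hold unfolded proteins without ATP, had 9 of 17 called higher in DS and 9 lower in DS_CNCs vs DS, with 0 called in CNCs vs CK. The CNCs interaction was called lower for 6 of these 17. Without CK 3, 1 of 17 was called in DS vs CK and 1 in the CNCs interaction. Nucleotide exchange factors had 1 of 9 higher in DS, HSP101 and ClpB disaggregases 1 of 9, heat stress transcription factors 1 of 31 and chaperonins 0 of 26, where 1.59% of all unigenes were higher. Each of these counts was 0 without CK 3. In the CNCs interaction 0, 2, 3 and 1 of these were lower, and without CK 3 0, 0, 1 and 0.

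**Figure D4:**
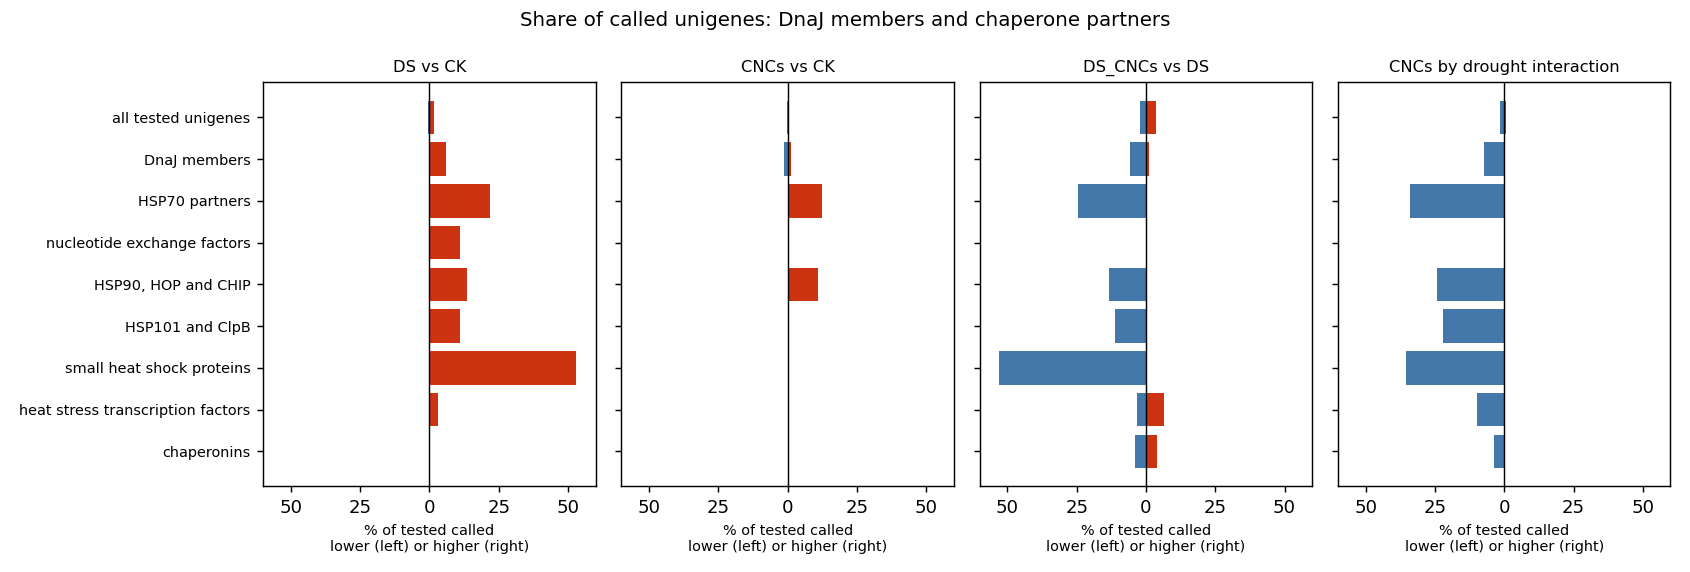
Percent of tested unigenes called higher (red, to the right) or lower (blue, to the left) in 4 comparisons, for all tested unigenes, the DnaJ members and the 7 lists of chaperone partners. DnaJ members are called higher in 5.95% and HSP70 partners in 9 of 41 in DS vs CK, and small heat shock proteins have 9 of 17 called in DS vs CK and in DS_CNCs vs DS and 0 in CNCs vs CK.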

How the data were processed

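Leaf RNA of 18 libraries was enriched with oligo(dT), sequenced strand-specifically and assembled without a genome (Trinity). The authors trimmed reads with cutadapt, checked them with FastQC and quantified unigenes with Salmon, and they deposited estimated counts per unigene and TPM with a protein description. The deposited TPM are scaled for length and library size by the authors and were used for levels; the deposited estimated counts (452055 values not whole) were rounded for the tests. The labels name Trizol and the methods a kit for RNA extraction.

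Counts were analysed in R 4.3.3 with edgeR 4.0.16 (TMM scaling, filterByExpr, the earlier quasi-likelihood method, 1 fit of 6 group means), with Benjamini-Hochberg adjustment over 55979 of 109684 unigenes and a log2 threshold of 2. The interaction is the particle effect under drought minus that under normal water. Alternatives were RLE scaling, DESeq2 1.42.0, no filter, limma 3.58.1 on log2(TPM + 0.5) for unigenes with at least 1 TPM in 3 libraries, a replicate block, a log2 threshold of 1, each library left out, and, added after seeing the data, the newer quasi-likelihood method.

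Named are members called in any of the 9 comparisons, in each comparison the 2 with the lowest p whose higher group reached 1 TPM, and the 10 with the highest mean TPM. The members and lists were chosen with earlier results of these data known, and the classes were made from the descriptions. Depth was 16175624 to 26102122 counts per library, and intervals cover counting error only.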

Additional observations from a re-analysis of the deposited data

Results flagged for a closer look

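The interaction with drought itself was tested, and 8 results differed between watered and droughted leaves at an edgeR adjusted p below 0.05. For CNCs the log2 interaction was −4.45 for DN1847_c1_g2, −2.09 for DN32066_c0_g1, −3.75 for DN17337_c0_g1, −5.47 for DN909_c0_g2, −8.49 for DN12116_c0_g1 and −5.65 for DN38192_c0_g1. For Si NPs it was −3.43 for DN1847_c1_g2 and −1.84 for DN32066_c0_g1, the latter under the fold threshold. All 8 rest on the same CK and DS libraries and are not independent. Groups of 3 libraries were too small for a test of single outlying libraries.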

How the results depend on the processing

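Counts of called members differed between tools. DESeq2 called 11 in DS vs CK, 4 in Si NPs vs CK, 14 in CNCs vs CK, 9 in DS_Si NPs vs DS, 10 in DS_CNCs vs DS, 1 in CNCs vs Si NPs, 6 in the Si NPs and 14 in the CNCs interaction and 37 among the 6 groups. The newer quasi-likelihood method, chosen after seeing the data, called 11 in DS vs CK, 1 in Si NPs vs CK (lower), 8 in CNCs vs CK, 7 in DS_Si NPs vs DS, 11 in DS_CNCs vs DS, 1 in CNCs vs Si NPs and 29 among the groups. With limma on TPM, 8 were called in DS vs CK and 5 in CNCs vs CK. A log2 threshold of 1 gave 3 in Si NPs vs CK, 6 in DS_Si NPs vs DS, 11 in DS_CNCs vs DS and 2 in the Si NPs interaction. Without a filter on low counts, 0 were called in Si NPs vs CK. With 1 library left out in turn, the counts ran from 0 to 6 in DS vs CK, 0 to 1 in Si NPs vs CK, 0 to 1 in CNCs vs CK, 0 to 4 in DS_Si NPs vs DS, 2 to 7 in DS_CNCs vs DS, 0 to 2 in the Si NPs interaction, 3 to 9 in the CNCs interaction and 7 to 23 among the groups. The cause of these differences was not tested. Shares of all unigenes under these settings are not given here, so these counts cannot be read as particular to the members.

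Libraries with the same replicate number deviated together little over the tested unigenes (mean correlations −0.047 to 0.083). The highest mean, 0.083, was between Si NPs and DS_Si NPs, where other numbers gave −0.042. With 3 libraries a group, such correlations cannot exclude that the numbers pair libraries. With the replicate block, 0 members were called in Si NPs vs CK, 5 in DS vs CK, 2 in CNCs vs CK, 3 in DS_Si NPs vs DS, 5 in DS_CNCs vs DS, 1 in the Si NPs interaction and 6 in the CNCs interaction, and 13 differed among the groups. Of 444 single-member values under alternatives, 348 kept their side of the threshold, 91 no longer passed, 5 newly passed and 0 changed sign.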
